A study of Mus musculus with 20 samples.

Results

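The comparison described here is that of the liver at 4 months of age with the liver at 3 months, among the 10 young mice of a series of 20. By the age written in their labels, 6 of these mice were 4 months old (B6 replicates 1, 4 and 5, B6-mtAKR replicates 2, 3 and 5) and 4 were 3 months old (B6 replicates 2 and 3, B6-mtAKR replicates 1 and 4). B6 is the inbred strain C57BL/6J, and B6-mtAKR is the conplastic strain that carries the mitochondrial DNA (mtDNA) of AKR/J mice on the nuclear genome of B6. The label of each B6 mouse gives a lower heteroplasmy of the 12A variant in OriL, the origin of light strand replication of the mtDNA, so strain was kept as a covariate throughout. No mouse was treated. The other 10 mice of the series were 19 to 20 months old. The study treated the 3 and 4 month old mice as 1 young group, and no source used here gives the sequencing batch, the hour at which each liver was taken, the feeding state or the sex of a mouse. Month therefore cannot be told apart from batch or from time of sampling.

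The liver carries a circadian clock of its own. The transcription factors Clock and Arntl (Bmal1), with Npas2 as a relative of Clock, bind E-boxes and drive the Per, Cry and Nr1d genes, whose proteins in turn repress the activators, so that the level of each transcript rises and falls over the day. Feeding, glucocorticoids and body temperature act on the same tissue rhythm, and genes of lipid synthesis, lipid oxidation, bile acid export and protein folding follow it in the mouse liver. For this reason the clock genes are described first and the metabolic and stress genes after them.

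Total RNA was sequenced, with each liver as 1 library. The libraries held 67157371 to 103999357 estimated counts at 3 months and 71191279 to 100431238 at 4 months. Between 9.52% and 17.7% of the counts came from the mtDNA at 3 months and between 7.52% and 11.5% at 4 months. After the removal of genes with few counts, 15699 genes were tested with edgeR, and a gene is said to have risen or fallen at 4 months where its adjusted p was under 0.05. Levels are given in CPM, counts per 1000000 counts of the normalised library, always in the order B6 replicates 2 and 3 and B6-mtAKR replicates 1 and 4 for the 3-month mice, and as the lowest, the median and the highest of the 6 mice of 4 months. Fold changes are log2 of 4 over 3 months with their standard error. Where an exact permutation p is given, month was exchanged within strain over all 100 arrangements of log2(CPM + 0.5), two-sided, and the smallest p this design allows is 0.01. It rests on the same mice as the edgeR p, so for genes picked by that p it adds no separate support. In a principal component analysis of the 2000 most variable genes, the first component (38.4% of the variance) separated the months, with the 3-month mice at 14.8 to 23.0 and the 4-month mice at -20.0 to -3.50. The second component (25.9%) spread the 4-month mice, from B6 replicate 1 at -28.2 and B6-mtAKR replicate 5 at -15.6 to B6-mtAKR replicate 2 at 20.7.

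The sequences just before the start of 4 of the genes called between the months hold short motifs known to be bound by the clock activators or by the heat shock factors. They are shown here because the clock genes and the heat shock genes are the groups the following paragraphs open with. The 4 were picked among the genes called because they hold a motif, so they do not link a motif to a call. The 250 bases before the RefSeq start of each gene (GRCm38.p6) are printed 5′ to 3′ on the strand of the gene, with the motif in capitals: the E-box CACGTG for Cry1 (chr10:85185055-85185304, minus strand, 54 bases before the start) and for Bhlhe41 (chr6:145865421-145865670, minus strand, 147 bases), a pair of overlapping heat shock triads, GAANNTTC followed after 2 bases by GAA, for Hspe1 (chr1:55087898-55088147, plus strand, 71 and 76 bases), and GAANNTTC for Dnaja1 (chr4:40722218-40722467, plus strand, 116 bases). Dnaja1 has 3 listed starts, of which the first that holds the motif is shown.
Cry1: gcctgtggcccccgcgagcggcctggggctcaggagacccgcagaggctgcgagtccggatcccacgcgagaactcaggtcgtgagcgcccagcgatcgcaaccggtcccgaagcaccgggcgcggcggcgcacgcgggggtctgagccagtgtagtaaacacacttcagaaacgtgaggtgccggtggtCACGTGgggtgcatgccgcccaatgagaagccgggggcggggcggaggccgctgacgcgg
Bhlhe41: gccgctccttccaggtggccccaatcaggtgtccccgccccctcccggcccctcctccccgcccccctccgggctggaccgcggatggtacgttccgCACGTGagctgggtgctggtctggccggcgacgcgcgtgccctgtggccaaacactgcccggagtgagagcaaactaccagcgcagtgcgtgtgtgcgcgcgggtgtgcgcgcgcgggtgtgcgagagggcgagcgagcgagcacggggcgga
Hspe1: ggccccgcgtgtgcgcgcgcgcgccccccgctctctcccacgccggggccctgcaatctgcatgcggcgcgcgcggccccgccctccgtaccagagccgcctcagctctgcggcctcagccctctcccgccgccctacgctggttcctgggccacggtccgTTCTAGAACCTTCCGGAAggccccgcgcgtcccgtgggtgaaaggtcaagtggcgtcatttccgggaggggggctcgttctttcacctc
Dnaja1: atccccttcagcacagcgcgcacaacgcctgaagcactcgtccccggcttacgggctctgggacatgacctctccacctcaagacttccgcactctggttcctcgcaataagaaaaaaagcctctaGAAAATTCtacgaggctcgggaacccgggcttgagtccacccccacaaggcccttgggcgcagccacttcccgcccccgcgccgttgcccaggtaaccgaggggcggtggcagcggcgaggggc
On either strand, CACGTG was present in 6.02% of all 32851 promoter windows of this length. Counted by gene, over any listed start, it was present for 6.86% of all 27025 genes. Among the 16 clock genes found in the table it was present for 5 (Per1, Cry1, Ciart, Bhlhe41 and Tef). Of the 4 clock genes called between the months it was present for 2, Cry1 and Bhlhe41. GAANNTTC was present in 6.69% of all windows, for 7.73% of all genes and for 7 of the 16 heat shock genes found. Of the 13 heat shock genes that were found and called it was present for 5. The triad, which contains it, was present in 0.466% of windows, for 0.514% of genes and for Hspe1 and Hspd1. Of these, Hspe1 was called between the months and Hspd1 was not. The D-box TTATGTAA (0.819% of windows, 0.977% of genes) was found among clock genes for Per3. The nuclear receptor motif AGGTCA (14.0% of windows, 15.8% of genes) was found for Clock, Per1, Nr1d2 and Nfil3. These are matches of letters in a window and not measured binding sites.

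Between 3 and 4 months, 2597 genes (16.5% of those tested) passed the threshold, 1412 (8.99%) higher and 1185 (7.55%) lower at 4 months. The smallest adjusted p was 0.000334, and 4924 genes had an unadjusted p under 0.05. Most differences were moderate, with a median size of 0.54 on the log2 scale among the genes called, and 375 genes differed by more than 2-fold, 168 of them higher and 207 lower. For 2301 genes (14.7%) the months did not overlap at all, with all 6 mice of 4 months above all 4 mice of 3 months in 1252 genes and below them in 1049. The median over all genes tested was 0.02. The number of genes called depended on single mice, falling to 1385 without B6-mtAKR replicate 4 of 3 months, to 1600 without B6-mtAKR replicate 1 of 3 months and to 1668 without B6-mtAKR replicate 3 of 4 months. With the share of mtDNA counts, which differed between the months, as a further covariate it was 767.

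No difference between the strains in the month effect was detected. Its test, the interaction of month and strain in edgeR, called 0 genes, with 368 at an unadjusted p under 0.05 and 2 called by DESeq2, which with 3 against 2 mice in each strain does not show that the strains moved alike. Within B6 alone 137 genes were called (78 higher, 59 lower), and within B6-mtAKR alone 345 (182 higher, 163 lower). The counts within a strain were unstable, at 2 without B6 replicate 4 of 4 months and at 0 without either B6-mtAKR replicate 3 of 4 months or B6-mtAKR replicate 4 of 3 months.

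Of the 18 core clock genes examined, which were all expressed above the filter, 4 were called. Bhlhe41, Nr1d1 and Dbp rose and Cry1 fell at 4 months, which is 22.2% of the list against 16.5% of all genes. In 3 of them, all but Dbp, the months did not overlap. The plot of clock genes by mouse shows that the 3-month mice lay close together in most of these genes and the 4-month mice apart. The log2 range was wider at 4 months in 16 of the 18 genes, although a range over 6 mice is expected to exceed one over 4. For Cry1 it was 1.40 at 4 months against 0.30 at 3 months and for Arntl 3.78 against 1.30.

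**Figure D1:**
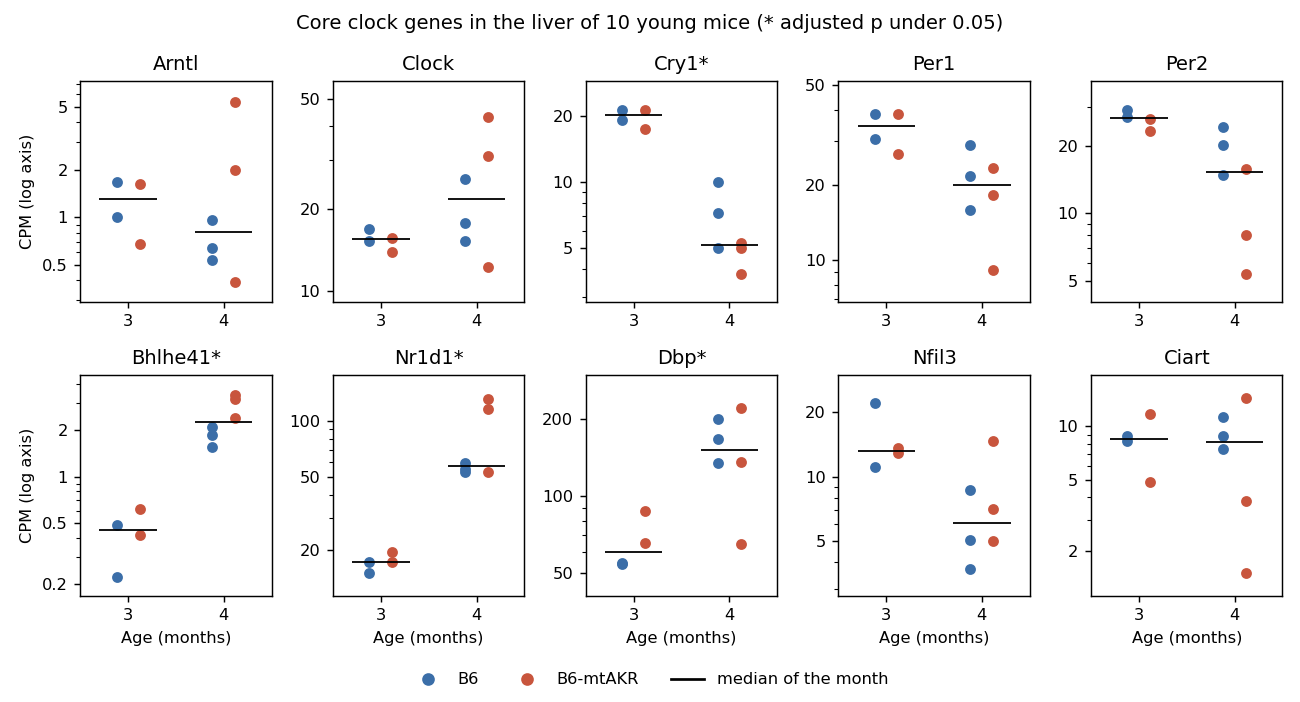
Level of 10 core clock genes in each young mouse, in CPM on a log axis, at 3 and 4 months of age, with a point per mouse coloured by strain and a bar at the median of the month; a star marks an adjusted p under 0.05. Cry1 lies lower and Bhlhe41 and Nr1d1 higher in every 4-month mouse, while Arntl and Clock overlap.

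None of the 3 activators was called. Arntl, the partner of Clock, measured 1.00, 1.66, 0.677 and 1.62 CPM at 3 months and 0.391, 0.803 and 5.39 CPM at 4 months. A single mouse, B6-mtAKR replicate 2, was far above the rest and the months overlapped (log2 fold change 0.09 ± 0.71, edgeR adjusted p = 0.951). Clock measured 16.8, 15.2, 13.9 and 15.7 CPM at 3 months and 12.2, 21.7 and 43.2 CPM at 4 months, so that the 4-month mice lay on both sides of the 3-month mice (log2 fold change 0.62 ± 0.32, adjusted p = 0.227, exact permutation p = 0.22). Npas2 was near the limit of detection, with 0.0309 to 0.136 CPM at 3 months and 0.0855 to 0.638 CPM at 4 months (log2 fold change 1.57 ± 0.64, adjusted p = 0.114).

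Among the 8 repressors, Bhlhe41 rose and Cry1 fell. Bhlhe41 (Dec2, chr6:145858243-145865558), a helix-loop-helix repressor that competes for E-boxes, measured 0.481, 0.223, 0.616 and 0.417 CPM at 3 months and 1.57, 2.25 and 3.40 CPM at 4 months. Every 4-month mouse was above every 3-month mouse (log2 fold change 2.45 ± 0.24, adjusted p = 0.000458, exact permutation p = 0.01). Cry1 (chr10:85131700-85185064), the cryptochrome that blocks Clock and Arntl late in the cycle, measured 19.2, 21.2, 17.4 and 21.4 CPM at 3 months and 3.80, 5.14 and 10.01 CPM at 4 months. All 3-month mice were tightly grouped and all 4-month mice lay below them (log2 fold change -1.75 ± 0.19, adjusted p = 0.000633, exact permutation p = 0.01). Cry1, Bhlhe41 and Nr1d1 were called under every one of the 26 alternative settings.

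The period genes were lower in most 4-month mice but none passed the threshold. Per2 measured 28.9, 27.1, 23.4 and 26.5 CPM at 3 months and 5.38, 15.3 and 24.4 CPM at 4 months. Only the highest 4-month mouse reached the 3-month range (log2 fold change -0.94 ± 0.30, adjusted p = 0.0584, exact permutation p = 0.03). Per1 measured 30.4, 38.6, 38.3 and 26.6 CPM and 9.12, 20.0 and 28.8 CPM, also with a small overlap (log2 fold change -0.79 ± 0.26, adjusted p = 0.062, exact permutation p = 0.02). Per2 was called in 8 and Per1 in 7 of the 26 alternative settings, among them DESeq2 and the fit without B6-mtAKR replicate 2 of 4 months. Per3 (log2 fold change -0.45), Ciart (-0.12), Cry2 (0.08) and Bhlhe40 (0.33) overlapped between the months, with adjusted p of 0.541, 0.908, 0.689 and 0.273.

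Of the 3 nuclear receptors examined, which bind the same response elements and act on Arntl, Nr1d1 rose. Nr1d1 (Rev-erb alpha, chr11:98767932-98775333), a repressor, measured 15.2, 17.2, 19.6 and 17.4 CPM at 3 months and 52.9, 57.3 and 131 CPM at 4 months. The lowest 4-month mouse was well above the highest 3-month mouse, and B6-mtAKR replicates 2 and 3 were the highest (log2 fold change 2.11 ± 0.25, adjusted p = 0.00123, exact permutation p = 0.01). Nr1d2 (0.25, adjusted p = 0.211) and Rora (0.10, adjusted p = 0.524) were not called.

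The PAR-bZIP factors carry the rhythm to output genes through D-boxes, where Nfil3 opposes Dbp, Tef and Hlf. Dbp (chr7:45705088-45710203) measured 54.1, 54.6, 87.6 and 65.5 CPM at 3 months and 64.7, 151 and 221 CPM at 4 months. The 4-month mice were higher except for B6-mtAKR replicate 2, which lay among the 3-month mice (log2 fold change 1.24 ± 0.32, adjusted p = 0.0277, exact permutation p = 0.05). Nfil3 measured 11.1, 22.0, 12.8 and 13.6 CPM at 3 months and 3.73, 6.07 and 14.7 CPM at 4 months and overlapped (log2 fold change -1.05 ± 0.37, adjusted p = 0.0859, exact permutation p = 0.04). Hlf and Tef had fold changes of 0.19 and -0.05 with adjusted p of 0.305 and 0.914. The call of Dbp was lost in 9 of the 26 alternative settings, while Nfil3 was called in 5. The number of clock genes called was 7 without B6-mtAKR replicate 2 of 4 months.

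On a scale that is normalised for length (TPM, as deposited), the 10 aged mice of the series lay on either side of the young mice depending on the gene. Arntl stood at 5.93 to 17.0 TPM in aged mice and did not exceed 2.30 TPM in a young mouse of either month, and Dbp stood at 0.402 to 3.27 TPM against 31.6 to 183 TPM in young mice. For these genes both months lay on the same side of the aged mice. Cry1 stood at 4.41 to 11.5 TPM in aged mice, which covers the 3-month range of 5.89 to 8.19 TPM and lies above the 4-month maximum of 3.89 TPM. Nr1d1 stood at 1.77 to 22.1 TPM in aged mice, which covers the 3-month range of 5.26 to 8.09 TPM and lies below the 4-month minimum of 23.4 TPM. These values are given side by side with no test.

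Beyond the core loop, 1 of 9 kinases and ubiquitin ligases of the clock was called, or 11.1% higher against 8.99% of all genes. Btrc, the F-box protein that marks period proteins for degradation, rose from 7.98, 7.38, 8.87 and 9.35 CPM to 9.73, 11.6 and 12.8 CPM, and the months did not overlap (log2 fold change 0.44 ± 0.08, adjusted p = 0.00475). Among 25 output genes, 2 rose (8%) and 7 fell (28%), against 8.99% and 7.55% of all genes. Fmo5, a flavin monooxygenase of the liver, measured 647, 707, 735 and 723 CPM at 3 months and 299, 341 and 419 CPM at 4 months. It fell in every 4-month mouse to well under the 3-month range (log2 fold change -1.02 ± 0.11, adjusted p = 0.000473). Tfrc, the transferrin receptor, measured 83.0, 71.5, 64.0 and 53.5 CPM at 3 months and 8.32, 12.1 and 34.5 CPM at 4 months. The highest 4-month mouse was still below the lowest 3-month mouse (log2 fold change -2.11 ± 0.32, adjusted p = 0.00358). Noct (nocturnin, log2 fold change -0.58 ± 0.11, adjusted p = 0.00531) and Lonrf3 (log2 fold change -1.32 ± 0.26, adjusted p = 0.00732) also fell without overlap, and Cys1, Tspan4 and Nampt were called lower. Klf10, a zinc finger factor, rose from 8.90 to 18.4 CPM to 14.2 to 51.0 CPM with some overlap (log2 fold change 1.27 ± 0.20, adjusted p = 0.00363), and so did Dtx4 (log2 fold change 0.94 ± 0.26, adjusted p = 0.0322). The median fold change of the 25 outputs was -0.10.

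The plot of gene lists sets these counts beside those of the metabolic, stress and housekeeping lists. The share of members called in each direction is read against the share of all genes, 8.99% higher and 7.55% lower. Counts of members in which the months did not overlap are read against the 14.7% of all genes.

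**Figure D2:**
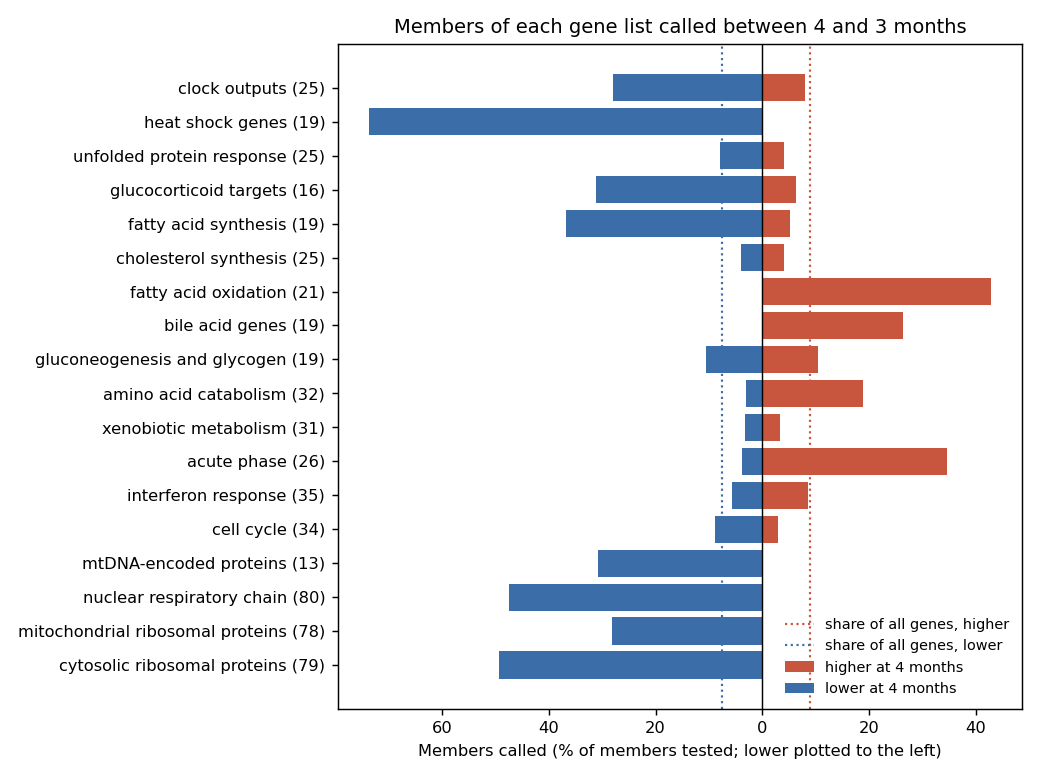
Members of 18 gene lists that were called higher (red, to the right) or lower (blue, to the left) at 4 months, in percent of the members tested, with the number tested in brackets and dotted lines at the shares of all 15699 genes. Heat shock genes reach 73.7% lower and fatty acid oxidation genes 42.9% higher, while xenobiotic metabolism and cholesterol synthesis stay at or under 4% in each direction.

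Heat shock genes, which encode the chaperones that fold proteins in the cytosol and mitochondria, were mostly lower at 4 months. Of 19 members 14 fell and none rose, with a median of -0.53 against 0.02 over all genes, and in 6 of the 19 the months did not overlap. The summed level of the list overlapped, at 3108.5 to 5032 CPM at 3 months and 2601 to 3480 CPM at 4 months. B6 replicate 3 had the highest sum of the 3-month mice. Hsp90aa1, the inducible cytosolic Hsp90, measured 195, 343, 144 and 151 CPM at 3 months and 74.0, 103 and 132 CPM at 4 months. All 4-month mice lay below, and B6 replicate 3 was the highest of the 3-month mice (log2 fold change -0.98 ± 0.18, adjusted p = 0.00548). Dnaja1, a cochaperone of Hsp70, measured 451, 484, 338 and 326 CPM at 3 months and 187, 233 and 300.1 CPM at 4 months, with no overlap (log2 fold change -0.74 ± 0.10, adjusted p = 0.00155). Hspe1, the mitochondrial Hsp10 whose promoter is printed above, measured 217, 167, 154 and 186 CPM and 104, 118 and 136 CPM (log2 fold change -0.60 ± 0.12, adjusted p = 0.00729). Cacybp, which carries a CS domain as several Hsp90 cochaperones do, had the smallest p of the list, with 53.1, 56.5, 41.4 and 46.3 CPM at 3 months and 20.997, 28.3 and 31.6 CPM at 4 months (log2 fold change -0.85 ± 0.09, adjusted p = 0.000473, exact permutation p = 0.01). Fkbp4, Dnajb1, Hsph1, Hspa1b, Chordc1, Ahsa1, Hspa4l, Stip1, Bag3 and Hspa1a also fell, and Hspa1a and Hspa1b are near-identical copies between which reads may be split. The number called was 7 without B6 replicate 3 of 3 months, without B6 replicate 4 of 4 months or without B6-mtAKR replicate 4 of 3 months, 8 without B6-mtAKR replicate 3 and 9 without B6 replicate 5 of 4 months, and in every such fit all of them were lower. Of the 2 cold-inducible RNA-binding genes none was called.

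Of 16 glucocorticoid targets 5 fell (31.2%) and 1 rose (6.25%), against 7.55% and 8.99% of all genes. Their median was -0.56. Tsc22d3 (GILZ), a direct target that mediates anti-inflammatory effects of the hormone, measured 119, 128, 92.5 and 94.2 CPM at 3 months and 30.1, 33.6 and 51.7 CPM at 4 months. All 4-month mice of both strains lay below all 3-month mice (log2 fold change -1.56 ± 0.13, adjusted p = 0.000334, exact permutation p = 0.01). Tat, tyrosine aminotransferase, measured 1412, 1367, 1659 and 1528 CPM at 3 months and 390.3, 632 and 737 CPM at 4 months, again without overlap (log2 fold change -1.32 ± 0.19, adjusted p = 0.00183). Dusp1, a phosphatase of MAP kinases, fell from 11.8 to 20.3 CPM to 5.25 to 13.9 CPM with B6-mtAKR replicate 2 of 4 months within the 3-month range (log2 fold change -0.98 ± 0.25, adjusted p = 0.0235). Sgk1, a kinase induced by corticoids, fell with overlap (log2 fold change -0.60 ± 0.16, adjusted p = 0.0317). Klf9, which also takes part in the clock output, rose from 30.4, 36.6, 42.2 and 42.3 CPM to 50.0, 90.4 and 128 CPM and did not overlap (log2 fold change 1.23 ± 0.24, adjusted p = 0.00708). Without B6 replicate 3 of 3 months only 3 targets were called, 1 higher and 2 lower.

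In the response to unfolded proteins in the endoplasmic reticulum, 1 of 25 members was higher and 2 were lower. These are 4% and 8%, against 8.99% and 7.55% of all genes. Trib3, a pseudokinase induced by this and by the amino acid response, rose from 3.24, 3.15, 5.16 and 4.06 CPM to 7.35, 8.76 and 28.9 CPM and did not overlap (log2 fold change 1.67 ± 0.30, adjusted p = 0.00596). Manf (log2 fold change -0.80 ± 0.18, adjusted p = 0.0128) and Ddit3 (CHOP, log2 fold change -0.63 ± 0.19, adjusted p = 0.0447) fell with overlap, and Manf was highest in the B6 mice of 3 months, at 110.4, 161, 68.1 and 50.0 CPM over the 4 mice. Of 19 immediate early genes only Junb was called, or 5.26% higher against 8.99% of all genes. Junb, a subunit of AP-1, measured 8.88, 13.8, 15.4 and 14.4 CPM at 3 months and 22.6, 24.8 and 40.7 CPM at 4 months. It rose without overlap (log2 fold change 1.10 ± 0.15, adjusted p = 0.00172).

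In lipid metabolism, the genes called were mostly lower in the list of fatty acid synthesis and all higher in that of fatty acid oxidation. Of 19 genes in the synthesis list 7 fell and 1 rose, with a median of -0.38, and in 6 the months did not overlap. The summed level of the list overlapped, at 9340 to 14767 CPM at 3 months and 6114 to 13904 CPM at 4 months. Elovl6, which elongates palmitate, measured 307, 265, 310.2 and 318 CPM at 3 months and 85.9, 99.3 and 222 CPM at 4 months. The 4-month mice lay below, with B6-mtAKR replicate 5 nearest to the 3-month mice (log2 fold change -1.36 ± 0.22, adjusted p = 0.00358). Acacb, the acetyl-CoA carboxylase of the mitochondrial membrane, measured 135, 116, 124 and 253 CPM at 3 months and 57.9, 76.9 and 97.0 CPM at 4 months. It fell without overlap although B6-mtAKR replicate 4 of 3 months was far above the other mice (log2 fold change -0.99 ± 0.17, adjusted p = 0.0038). Pnpla3, a lipase of lipid droplets under the control of SREBP-1c, measured 5.27, 8.07, 4.18 and 4.73 CPM at 3 months and 0.470, 1.19 and 1.96 CPM at 4 months, the largest fall of the list (log2 fold change -2.24 ± 0.38, adjusted p = 0.00462). Fasn, fatty acid synthase, fell from 503 to 899.9 CPM to 278 to 561 CPM with overlap (log2 fold change -0.79 ± 0.15, adjusted p = 0.00593), and Thrsp, Me1 and Acly were also called lower. Elovl5, which elongates polyunsaturated fatty acids, went the other way, from 184, 159.5, 172 and 212 CPM to 251, 398 and 548 CPM (log2 fold change 1.09 ± 0.19, adjusted p = 0.00387).

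Of 21 genes in the list of fatty acid oxidation 9 rose and none fell, with a median of 0.53 and no overlap in 7. The list also holds genes of fatty acid transport and storage, such as Cd36 and Plin2. In several alternative settings, among them DESeq2, DESeq2 size factors in edgeR and length-scaled TPM, 1 member was called lower. Plin2, the coat protein of lipid droplets, measured 181, 160.2, 152 and 229 CPM at 3 months and 309, 395 and 674 CPM at 4 months. The highest mouse was B6-mtAKR replicate 2, and the months did not overlap (log2 fold change 1.19 ± 0.18, adjusted p = 0.00251). Cd36, a fatty acid transporter, measured 61.8, 63.5, 67.1 and 57.1 CPM and 93.0, 105 and 147 CPM, again without overlap (log2 fold change 0.80 ± 0.13, adjusted p = 0.003). Cpt1a, which admits long-chain fatty acids to the mitochondrion, measured 257, 218, 297 and 313 CPM at 3 months and 356, 421 and 444 CPM at 4 months, and every 4-month mouse exceeded the 3-month mice (log2 fold change 0.62 ± 0.12, adjusted p = 0.0059). Hadhb, a subunit of the trifunctional protein, rose from 176 to 193 CPM to 237 to 302 CPM (log2 fold change 0.50 ± 0.10, adjusted p = 0.006). Ppara, the nuclear receptor that drives this programme, was called higher too, with Creb3l3, Bdh1, Ehhadh and Cyp4a14. The summed level of the 21 genes overlapped all the same, at 10843 to 14198 CPM at 3 months and 8889 to 14603 CPM at 4 months. Its median was not higher at 4 months, at 11876 CPM against 12651.5 CPM at 3 months.

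**Figure D3:**
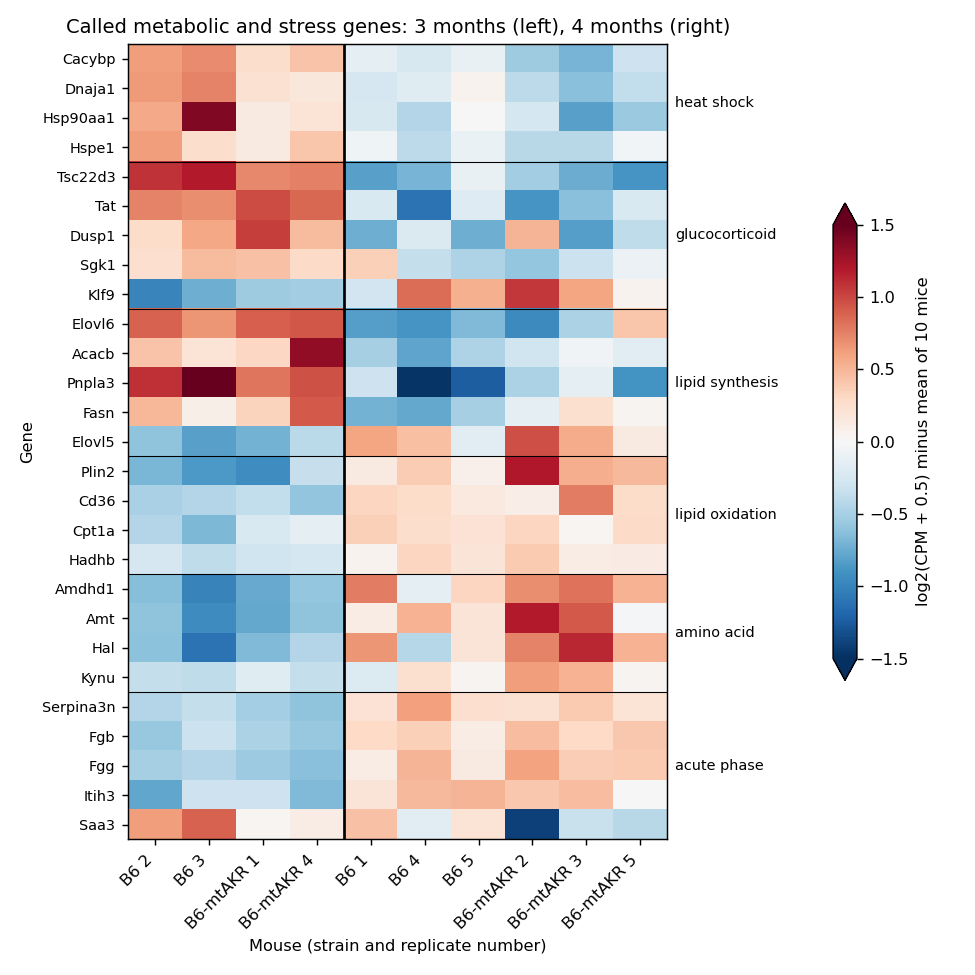
Level of 27 called metabolic and stress genes in each of the 10 young mice, as log2(CPM + 0.5) minus the mean of the 10 mice (red above, blue below, with the colour scale ending at 1.5 in each direction), 3-month mice left of the black line and 4-month mice right of it. Heat shock, glucocorticoid and lipid synthesis genes are mostly red at 3 months and blue at 4 months, and lipid oxidation, amino acid and acute phase genes the reverse, with Klf9, Elovl5 and Saa3 against the direction of their lists.

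Of 25 genes of cholesterol synthesis 1 rose and 1 fell, with a median of 0.15. The count and its direction rested on single mice, with 4 genes called without B6 replicate 1 of 4 months (all lower) and 4 without B6 replicate 2 of 3 months (all higher). None was called without B6 replicate 4 of 4 months, B6-mtAKR replicate 3 of 4 months, or B6-mtAKR replicate 1 or 4 of 3 months, and 1 without any other single mouse. Srebf2, the transcription factor of the pathway, rose (log2 fold change 0.47 ± 0.13, adjusted p = 0.0318), from 35.7 to 47.8 CPM to 45.2 to 66.4 CPM, and Pmvk, phosphomevalonate kinase, fell (log2 fold change -0.59 ± 0.18, adjusted p = 0.0451), both with overlap. Of 19 bile acid genes 5 rose and none fell, with a median of 0.19. Abcb11, the bile salt export pump, measured 212, 258, 261 and 167 CPM at 3 months and 303, 402 and 613 CPM at 4 months. It was higher in every 4-month mouse (log2 fold change 0.92 ± 0.20, adjusted p = 0.0117). Hsd3b7, an enzyme of bile acid synthesis, rose from 110.2 to 196 CPM to 193 to 630.1 CPM (log2 fold change 1.30 ± 0.36, adjusted p = 0.0357), Abcb4, the phospholipid exporter, from 110.1 to 151 to 143 to 239 CPM (log2 fold change 0.58 ± 0.16, adjusted p = 0.0342) and Amacr from 84.7 to 119 to 110.1 to 153 CPM (log2 fold change 0.38 ± 0.11, adjusted p = 0.041), while Abcc2 was called as well. The bile acid count rested on single mice, at 3 without B6 replicate 2 of 3 months, 2 without B6 replicate 3 or B6-mtAKR replicate 1 of 3 months, and 1 without B6 replicate 4 or 5 of 4 months, B6-mtAKR replicate 2 or 3 of 4 months, or B6-mtAKR replicate 4 of 3 months.

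Among 19 genes of gluconeogenesis and glycogen, 2 rose and 2 fell, or 10.5% in each direction against 8.99% and 7.55% of all genes. Insr, the insulin receptor, measured 65.4, 67.3, 78.2 and 72.9 CPM at 3 months and 92.9, 108 and 125 CPM at 4 months. All 4-month mice were higher (log2 fold change 0.63 ± 0.08, adjusted p = 0.00106). Slc2a2 (Glut2), the glucose transporter of the hepatocyte, rose from 209 to 279 CPM to 316 to 421 CPM without overlap (log2 fold change 0.62 ± 0.12, adjusted p = 0.00571). Ppp1r3b, which targets protein phosphatase 1 to glycogen, measured 374, 269, 321 and 224 CPM at 3 months and 78.2, 121 and 178 CPM at 4 months, and fell without overlap (log2 fold change -1.24 ± 0.22, adjusted p = 0.00535). Igfbp1, an insulin-repressed binding protein of IGF-1, fell from 41.0, 32.0, 28.2 and 141 CPM to 7.93, 19.9 and 25.6 CPM (log2 fold change -1.58 ± 0.42, adjusted p = 0.0362), with a single 3-month mouse, B6-mtAKR replicate 4, far above the rest. The call was lost in 13 of the 26 alternative settings, among them those without B6 replicate 2 or 3 of 3 months, B6 replicate 4 or 5 of 4 months, B6-mtAKR replicate 4 of 3 months or any B6-mtAKR mouse of 4 months.

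Of 32 genes of amino acid catabolism, 6 rose (18.8%) and 1, Tat, fell (3.12%), against 8.99% and 7.55% of all genes. Their median was 0.21. Amdhd1, which acts in histidine breakdown, measured 96.9, 74.7, 88.7 and 101 CPM at 3 months and 137, 231 and 265 CPM at 4 months. The months did not overlap (log2 fold change 1.26 ± 0.17, adjusted p = 0.0014). Hal, histidine ammonia lyase and the first enzyme of the same pathway, rose from 102 to 162 CPM to 162 to 479.9 CPM (log2 fold change 1.21 ± 0.21, adjusted p = 0.00498), and Ftcd, which completes it, was called higher as well. Amt, of the glycine cleavage system, rose from 12.3 to 15.7 to 23.9 to 55.6 CPM (log2 fold change 1.28 ± 0.22, adjusted p = 0.00475), and Kynu, of tryptophan breakdown, from 62.5 to 71.6 to 70.2 to 126 CPM (log2 fold change 0.54 ± 0.13, adjusted p = 0.0185), as did Sdsl. Without B6-mtAKR replicate 4 of 3 months 4 genes of the list were called, 3 higher and 1 lower. Xenobiotic metabolism showed 1 gene higher and 1 lower of 31, and 2 of each without B6 replicate 4 of 4 months. Abcc3, an exporter of conjugates, rose from 70.7 to 108 CPM to 141 to 169 CPM (log2 fold change 0.78 ± 0.13, adjusted p = 0.00319), and Sult1d1, a sulfotransferase, fell from 462, 327, 409 and 447 CPM to 152, 192 and 233 CPM, with no overlap in either gene (log2 fold change -1.08 ± 0.13, adjusted p = 0.00112).

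Of 26 genes for plasma proteins and other members of the acute phase 9 rose and 1 fell, with a median of 0.34 and no overlap in 7, and their summed level was 15462 to 19894 CPM at 3 months and 21868 to 24744 CPM at 4 months, so that the sums of the months did not overlap. Fgb, the beta chain of fibrinogen, measured 2259.8, 2668, 2418 and 2264 CPM at 3 months and 3608, 4219 and 4608 CPM at 4 months. All 4-month mice were higher (log2 fold change 0.80 ± 0.12, adjusted p = 0.00215), and Fgg, the gamma chain, followed from 1795 to 2042 CPM to 2989.8 to 4208 CPM (log2 fold change 0.89 ± 0.13, adjusted p = 0.00222). Serpina3n, a serine protease inhibitor, rose from 174, 185, 166 and 155 CPM to 272, 279 and 361 CPM (log2 fold change 0.80 ± 0.10, adjusted p = 0.00135), and Itih3 from 279.7 to 388 CPM to 479 to 682 CPM (log2 fold change 0.85 ± 0.15, adjusted p = 0.00387). Cp, Fga, Il1rn, Steap4 and Lbp were also called higher. Saa3 fell from 6.15 to 11.5 CPM to 1.96 to 8.31 CPM with overlap (log2 fold change -0.70 ± 0.22, adjusted p = 0.0468).

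The interferon response showed 3 genes higher and 2 lower of 35. These shares, 8.57% and 5.71%, were not above the 8.99% and 7.55% of all genes. Ddx58 (RIG-I, log2 fold change 0.51 ± 0.10, adjusted p = 0.00699) and Dhx58 (LGP2, log2 fold change 0.62 ± 0.17, adjusted p = 0.0263), sensors of viral RNA, rose without overlap, from 15.5 to 19.2 to 20.3 to 27.4 CPM and from 5.17 to 7.55 to 8.14 to 13.6 CPM. Rsad2 rose with overlap (log2 fold change 0.65 ± 0.18, adjusted p = 0.0348). Ifi27l2a fell from 29.1, 38.4, 26.7 and 30.0 CPM to 10.4, 11.3 and 21.6 CPM (log2 fold change -1.18 ± 0.23, adjusted p = 0.00791) and Irf7, a transcription factor of the response, fell with overlap (log2 fold change -0.59 ± 0.17, adjusted p = 0.0357). The count was 2 or 3 without B6 replicate 4 of 4 months or without any 1 of B6-mtAKR replicates 1 to 4.

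For growth and proliferation, 3 lists were examined. Of 8 growth hormone targets 2 rose and none fell, which is 25% higher against 8.99% of all genes. Their summed level did not overlap, at 1489 to 1591 CPM at 3 months and 1728 to 2132 CPM at 4 months. The list was not split by whether the hormone raises or lowers a gene. Its count and sum therefore give no direction of hormone action. Among 8 growth hormone targets Socs2, the feedback inhibitor of the receptor, measured 15.5, 33.3, 23.6 and 18.7 CPM at 3 months and 48.8, 51.0 and 55.1 CPM at 4 months. The 4-month mice were closely grouped and all above the 3-month mice (log2 fold change 1.18 ± 0.18, adjusted p = 0.00251). Igfbp2 rose too, from 311 to 491 CPM to 540.2 to 683 CPM (log2 fold change 0.67 ± 0.13, adjusted p = 0.0073). Of 8 postnatal growth genes, which decline in the liver after birth, Mest was called higher (log2 fold change 0.47 ± 0.14, adjusted p = 0.0473), a call lost in 18 of the 26 alternative settings. Of 34 cell cycle genes 1 rose and 3 fell, or 2.94% and 8.82% against 8.99% and 7.55% of all genes. Ccne2 (cyclin E2) measured 5.67, 4.71, 5.27 and 4.09 CPM at 3 months and 0.814, 1.69 and 2.93 CPM at 4 months, all 4-month mice being lower (log2 fold change -1.52 ± 0.32, adjusted p = 0.0113). Tk1 (log2 fold change -0.68 ± 0.15, adjusted p = 0.0125) and Rrm2 (log2 fold change -0.88 ± 0.25, adjusted p = 0.0339), which supply nucleotides for DNA synthesis, fell, and Kif20a, a mitotic kinesin, rose (log2 fold change 0.71 ± 0.19, adjusted p = 0.0283), each without overlap. The cell cycle count was 7 without B6 replicate 1 of 4 months, and 2 without B6 replicate 2 of 3 months or without any 1 of B6-mtAKR replicates 1 to 4.

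The lists of ribosomes and of the respiratory chain held many genes that fell. Of 79 cytosolic ribosomal protein genes 39 fell and none rose, with a median of -0.35, and in 37 the months did not overlap. Of 80 nuclear genes of the respiratory chain 38 fell and none rose (median -0.28, no overlap in 42), and of 78 mitochondrial ribosomal protein genes 22 fell and none rose (median -0.17). Rps14 measured 938, 661, 669.9 and 1128 CPM at 3 months and 259.99, 339 and 378 CPM at 4 months, and Rps27 617, 419, 386 and 715 CPM and 152, 198 and 243 CPM. The 4-month mice were lower throughout, with the highest 3-month values in B6 replicate 2 and B6-mtAKR replicate 4 (Rps14 log2 fold change -1.38 ± 0.17, adjusted p = 0.00114, Rps27 log2 fold change -1.41 ± 0.19, adjusted p = 0.00163). Rpl15 (log2 fold change -0.89 ± 0.13, adjusted p = 0.00183) and Rpl13a (log2 fold change -0.97 ± 0.14, adjusted p = 0.00208) also fell without overlap. Ribosomal protein genes have many processed pseudogenes, with which reads may be shared. Cox6c, of complex IV, measured 643, 399, 403 and 749 CPM at 3 months and 179, 213 and 248 CPM at 4 months. The same 3-month mice were highest and the months did not overlap (log2 fold change -1.36 ± 0.18, adjusted p = 0.00171). Ndufa4 (log2 fold change -1.05 ± 0.16, adjusted p = 0.00222), Ndufb8 (log2 fold change -0.66 ± 0.09, adjusted p = 0.00183) and Atp5l (log2 fold change -0.93 ± 0.14, adjusted p = 0.0021) fell in the same way. Among mitochondrial ribosomal genes, Mrps21 fell from 47.4 to 60.6 CPM to 23.5 to 31.8 CPM (log2 fold change -0.98 ± 0.10, adjusted p = 0.000473), Mrpl53 from 43.4 to 63.4 to 22.2 to 31.1 CPM, Mrpl20 from 54.0 to 84.4 to 29.3 to 42.1 CPM and Mrpl12 from 188 to 263 to 119 to 153 CPM. Without B6-mtAKR replicate 4 of 3 months the counts were 20 cytosolic and 10 mitochondrial ribosomal genes, and without B6 replicate 2 of 3 months 25 and 14, of which 2 mitochondrial ribosomal genes were then higher.

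These lists consist of short transcripts, and the month difference followed transcript length. The median length was 728 bases for cytosolic ribosomal and 722 bases for respiratory chain genes, against 2368 bases over all genes, 2910 bases over the genes called higher and 1513 bases over those called lower. In the shortest decile of genes, with a median of 672 bases, the median fold change was -0.26, with 1.59% called higher and 19.4% lower. The plot of deviation by length shows that every 3-month mouse was positive in that decile, at 0.0230 to 0.137, and every 4-month mouse negative, at -0.111 to -0.0240. When a smooth trend on length was removed within each mouse, the median of this decile became 0.02, with 5.61% higher and 7.01% lower. The trend was fitted on length in these same mice, so a small median in every decile follows from the step itself. The same step acts on the medians of lists of short transcripts. Under these offsets 18 cytosolic ribosomal genes were called, all lower (median -0.09), 1 respiratory chain gene was higher and 16 were lower (median -0.04), and 5 mitochondrial ribosomal genes were higher and 11 lower (median 0.00). Under the same offsets 13 heat shock genes were lower, 9 fatty acid oxidation and 9 acute phase genes higher, and 1 fatty acid synthesis gene higher and 8 lower. Of other lists, the bile acid count went from 5 to 2, that of the unfolded protein response from 3 to 1, that of cholesterol synthesis from 2 to 0 and that of mtDNA-encoded proteins from 4 to 1. Whether the trend on length reflects the libraries or the livers was not tested.

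**Figure D4:**
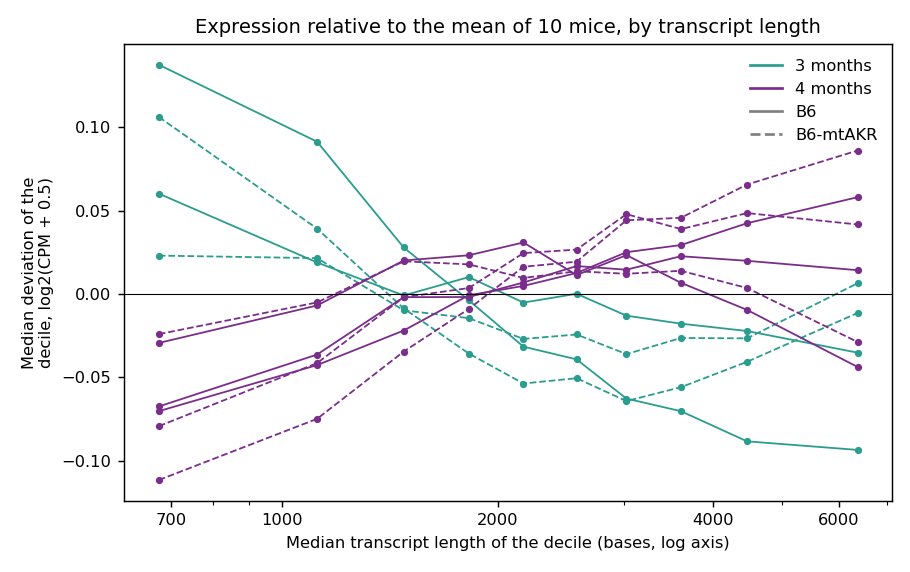
Median deviation of each mouse from the mean of the 10 young mice, in log2(CPM + 0.5), over the genes of each decile of transcript length, against the median length of the decile in bases on a log axis, with a line per mouse coloured by month and dashed for B6-mtAKR. In the shortest decile the 3-month mice lie at 0.0230 to 0.137 and the 4-month mice at -0.111 to -0.0240, and among the longest genes the months overlap.

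The mtDNA itself encodes 13 proteins of the respiratory chain, of which 4 fell and none rose, with a median of -0.58. mt-Co1 (chrM:5328-6872), a core subunit of complex IV, stood at 74431, 39499, 45802 and 63342 CPM at 3 months and 26093, 32202 and 42049.9 CPM at 4 months. The 2 highest mice were B6 replicate 2 and B6-mtAKR replicate 4 of 3 months, and the months overlapped (log2 fold change -0.75 ± 0.20, adjusted p = 0.0277, exact permutation p = 0.01). mt-Cytb (log2 fold change -0.70 ± 0.20, adjusted p = 0.0365), mt-Nd6 (log2 fold change -0.74 ± 0.21, adjusted p = 0.0348) and mt-Nd3 (log2 fold change -1.18 ± 0.34, adjusted p = 0.0395) were also called lower, and mt-Nd5 was not (log2 fold change -0.45 ± 0.21, adjusted p = 0.171). mt-Nd5 and mt-Nd6 lie on opposite strands with overlapping ends, so reads at their junction may be shared. The calls depended on single mice. None was made without B6 replicate 2 of 3 months, B6 replicate 4 of 4 months, B6-mtAKR replicate 2 or 3 of 4 months, or B6-mtAKR replicate 4 of 3 months, 1 was made without B6 replicate 1 or 5 of 4 months, and 10 genes were called without B6 replicate 3 of 3 months. mt-Nd6 changed sign, to 0.04, when trends on length and GC content were removed, and with the mtDNA share as a covariate 1 gene of the list was called, and that higher.

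A cluster of zinc finger genes on chromosome 2 stood out among the genes that fell and was picked after its values were seen, so that no test applies to it as a group. Between chr2:175038121-178078476 (GRCm38) 45 genes were tested, among them 9 with Zfp symbols, 35 predicted genes and 8 annotated pseudogenes. All 45 had a negative fold change, from -2.65 to -0.46 with a median of -1.33, 34 were called lower, and in 33 all 4-month mice lay below all 3-month mice. The summed level was 376.5 to 645.5 CPM at 3 months and 150.1 to 255.4 CPM at 4 months. Relative to the mean of the 10 mice, the median over the cluster was 1.04 and 0.24 in B6 and 0.38 and 0.88 in B6-mtAKR mice of 3 months, and -0.73 to -0.17 in the 4-month mice. Zfp970 (chr2:177464733-177478129), a member with the smallest p of all genes that fell, measured 60.1, 56.6, 51.8 and 47.7 CPM at 3 months and 16.5, 23.5 and 27.7 CPM at 4 months. No 4-month mouse came near the 3-month range (log2 fold change -1.21 ± 0.10, adjusted p = 0.000334, exact permutation p = 0.01). The predicted gene Gm14443 of the same cluster ranked beside it. The 45 genes were taken by position alone, and neither their sequences nor their zinc finger content was compared. Where neighbours are similar copies, the deposited counts may be divided arbitrarily among them. The cluster is therefore better read as a whole than gene by gene.

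**Figure D5:**
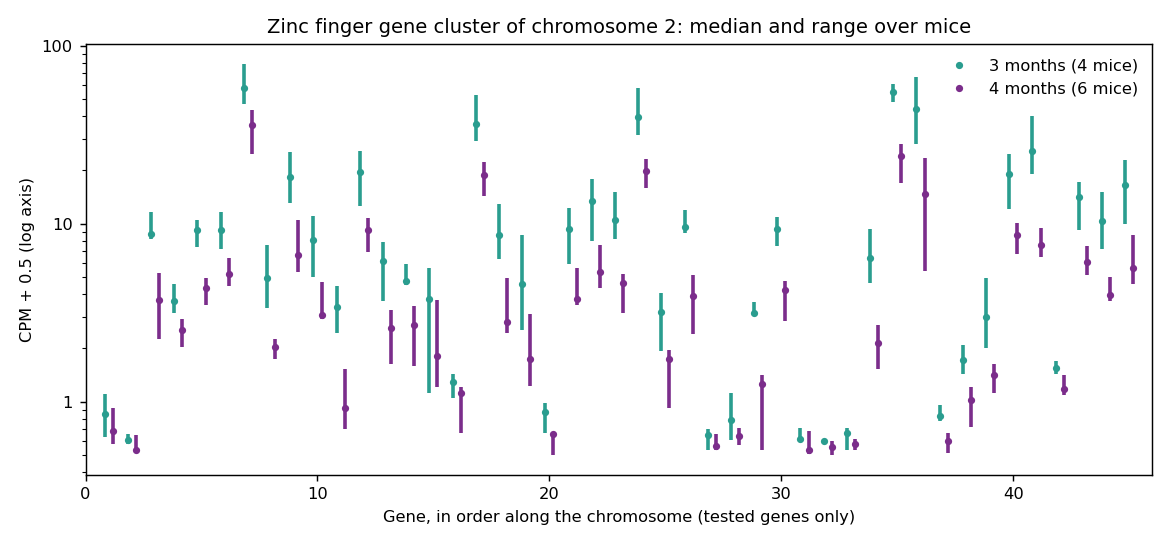
Level of the 45 tested genes of the chromosome 2 zinc finger cluster, in order along the chromosome, as CPM + 0.5 on a log axis, with the median (point) and range (line) over the 4 mice of 3 months and the 6 mice of 4 months. The 4-month median lies below the 3-month median in each gene, and in 33 genes the ranges do not touch.

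By p, the leading 10 of the genes that rose were Bhlhe41, described above, and 9 others that belong to none of the lists. Klhdc7a, a kelch repeat protein, measured 17.6, 15.2, 17.8 and 19.1 CPM at 3 months and 35.6, 40.1 and 45.2 CPM at 4 months. It had the smallest p of all genes (log2 fold change 1.198 ± 0.10, adjusted p = 0.000334, exact permutation p = 0.01). Hykk, which phosphorylates hydroxylysine, measured 24.4, 18.1, 30.6 and 36.0 CPM at 3 months and 65.1, 72.2 and 91.5 CPM at 4 months (log2 fold change 1.49 ± 0.12, adjusted p = 0.000334, exact permutation p = 0.01). Scap, the escort protein that carries the SREBP factors out of the endoplasmic reticulum, measured 77.4, 69.3, 87.8 and 81.3 CPM at 3 months and 132, 173 and 201 CPM at 4 months. No 4-month mouse lay within the 3-month range (log2 fold change 1.09 ± 0.10, adjusted p = 0.000334, exact permutation p = 0.01). Slc23a2, a transporter of vitamin C, rose from 8.17 to 13.8 CPM to 19.7 to 46.8 CPM (log2 fold change 1.48 ± 0.13, adjusted p = 0.000334, exact permutation p = 0.01). Lclat1, a lysocardiolipin acyltransferase, rose from 26.1 to 31.1 to 46.2 to 58.5 CPM (log2 fold change 0.87), Sulf2, which edits heparan sulfate, from 6.36 to 7.45 to 15.1 to 24.0 CPM (1.37), Tenm3, a teneurin of the cell surface, from 1.34 to 1.93 to 3.80 to 7.19 CPM (1.79), Zkscan17 from 14.3 to 17.3 to 28.6 to 36.9 CPM (0.99) and Hs1bp3 from 7.60 to 8.06 to 12.7 to 15.6 CPM (0.90). All 10 had adjusted p of at most 0.000458 and an exact permutation p of 0.01. They were picked by p in these same mice, so the exact p adds no separate support.

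The 10 genes with the smallest p that fell included Zfp970, Gm14443, Tsc22d3 and Cacybp, described above. All 10 were picked by p in these same mice, so their exact p adds no separate support. Serp1, a stress-associated protein of the endoplasmic reticulum, measured 537, 472, 419.8 and 419 CPM at 3 months and 180.2, 215 and 268 CPM at 4 months. It fell without overlap (log2 fold change -1.07 ± 0.10, adjusted p = 0.0004, exact permutation p = 0.01). Hes6, a helix-loop-helix factor, measured 139, 123, 111 and 102 CPM at 3 months and 33.9, 48.6 and 69.3 CPM at 4 months, with no overlap (log2 fold change -1.31 ± 0.13, adjusted p = 0.000473, exact permutation p = 0.01). Itpa, which removes inosine triphosphate from the nucleotide pool, fell from 41.1 to 60.7 CPM to 17.2 to 25.5 CPM (log2 fold change -1.19 ± 0.11, adjusted p = 0.0004, exact permutation p = 0.01). Taf1d, of the RNA polymerase I machinery, fell from 10.5 to 16.7 to 4.19 to 5.50 CPM (-1.38) and Cgrrf1 from 61.9 to 78.3 to 27.8 to 37.7 CPM (-1.09). Tnnc1, the troponin C of heart and slow muscle, measured 2.29, 3.29, 1.33 and 1.65 CPM at 3 months and 0.318, 0.390 and 0.451 CPM at 4 months, with every 4-month mouse lower (log2 fold change -2.44 ± 0.23, adjusted p = 0.0004, exact permutation p = 0.01). The 4 markers of fast skeletal muscle (Acta1, Ckm, Myh4 and Tnnt3) did not follow it: they had 37 to 60 counts in B6 replicate 2 of 3 months and at most 3 counts in any other young mouse.

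Of Mtor, Fbxo32 and Vdac1, nuclear genes followed in young and aged mice of these strains, Mtor alone was called. Mtor, the kinase of the growth pathway (chr4:148448611-148557683), measured 25.3, 30.5, 35.4 and 35.8 CPM at 3 months and 30.8, 44.3 and 48.7 CPM at 4 months. It rose with overlap (log2 fold change 0.44 ± 0.12, adjusted p = 0.0319, exact permutation p = 0.02), and the call was lost in 12 of the 26 alternative settings. Fbxo32 (Atrogin-1), a ubiquitin ligase, measured 2.79, 3.84, 5.51 and 6.47 CPM at 3 months and 2.42, 3.93 and 5.78 CPM at 4 months and was not called (log2 fold change -0.20 ± 0.20, adjusted p = 0.532, exact permutation p = 0.35). Vdac1 encodes the channel of the outer mitochondrial membrane, and its DNA copies served as the study's nuclear reference for mtDNA copy number. Its RNA measured 199.9, 188, 195 and 208 CPM and 157, 187 and 199.9 CPM and was not called (log2 fold change -0.09 ± 0.09, adjusted p = 0.526, exact permutation p = 0.23).

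Markers of cell types were examined because the tissue was sequenced in bulk, where fewer cells of a type and less RNA per cell cannot be told apart. Hepatocyte markers dominated every library, with a summed level of 73791 to 97901 CPM at 3 months and 93824 to 121518 CPM at 4 months, and of 6 only Fgb was called. No marker of Kupffer cells (8 tested), endothelium (8), cholangiocytes (6), T and NK cells (7), B and plasma cells (7), neutrophils and monocytes (5), erythroid cells (5) or mesothelium (3) was called. The summed levels overlapped between the months for Kupffer cells (398 to 833 and 335 to 658 CPM), for cholangiocytes (36.9 to 53.3 and 38.6 to 185 CPM) and for erythroid cells (622 to 1273 and 225 to 1056 CPM). Of 8 stellate cell markers Lrat, which stores vitamin A as ester, fell from 30.6, 27.8, 34.6 and 34.7 CPM to 11.8, 18.1 and 23.3 CPM without overlap (log2 fold change -0.84 ± 0.15, adjusted p = 0.0053), while the summed level of the list overlapped (247.5 to 293.5 and 211.4 to 327.5 CPM). Cela1, a pancreatic elastase, fell with overlap (log2 fold change -0.97 ± 0.28, adjusted p = 0.0395), while Prss2, Cela3b, Cpa1, Pnlip and Ctrb1 had at most 2 counts in any young mouse. Of 10 periportal genes 1, Hal, was called (10% higher, against 8.99% of all genes), and of 13 pericentral genes none.

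No gene of the sex-biased lists was called, with 15 female-biased and 11 male-biased genes tested, and the Y-linked genes Ddx3y and Eif2s3y had at most 3 counts in any young mouse. The summed level of the female-biased genes was 2722 to 7032 CPM at 3 months and 2579 to 5604 CPM at 4 months, and that of the male-biased genes 698 to 1105 CPM and 517 to 932 CPM. Both pairs of ranges overlapped.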

How the data were processed

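Total RNA of the liver was sequenced as stranded, paired 75-nucleotide reads, per the labels. The authors pseudo-aligned the reads to mouse transcripts with kallisto 0.43.0 (genome build mm10, both from the submitters' processing notes) and deposited, for each transcript and mouse, expected counts (kallisto's estimated counts) and TPM. The deposited counts are not normalized, and the deposited TPM are scaled by transcript length and library. The groups follow the age, strain and replicate number in the labels.

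Estimated counts were summed to genes of GENCODE M21 (GRCm38) and rounded, which left out 1325 transcripts that are not in that annotation. A gene was kept if 4 or more mice had 5 or more counts. Month was tested in R 4.3.3 with edgeR 4.0.16 (TMM, robust quasi-likelihood fit, Benjamini-Hochberg over all genes, threshold 0.05) with strain as covariate. The members and lists were chosen with earlier results of these data known, so no p is given for a list, and lists are described by counts and medians beside those of all genes. Named are the core clock genes, the 10 genes with the smallest p in each direction, up to 4 called members per list and direction by p (other called members by symbol only), and the genes the study followed. Predicted genes are named without values. Mice of 1 month and strain differed by 92.0 times counting noise or more per gene, so no library is a duplicate, and the spread between mice sets the error. Nothing says that the mice came from separate litters or cages.

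Alternatives were DESeq2 1.42.0, limma 3.58.1 (voom), sva 3.50.0, other scalings, filters, covariates and samples, and each mouse left out in turn. Offsets that remove trends on transcript length and GC content, and the fit without the 3 mice farthest out on the second component, were chosen after seeing the data. On simulated counts (15699 genes, 200 changed, dispersion 0.05) the fit of month recovered 17.9% of 1.5-fold, 85.1% of 2-fold and 100% of 4-fold changes with 3.57% false calls. Promoters are RefSeq sequences, read with Python 3.11.15 and pandas 2.3.3. Some members of the lists, core clock genes included, are not reported here. The study's model held batch and heteroplasmy level, which the sources used here do not give per mouse.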

Additional observations from a re-analysis of the deposited data

Results flagged for a closer look

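Each value below is a single mouse that lay far from the others of its month, by the gap to its nearest neighbour as a share of the range of the month (Dixon's 95% limit for 4 or 6 mice). Of 236 groups checked, over 118 named genes and both months, 14 were marked, and chance marks about 1 in 20. In B6-mtAKR replicate 2 of 4 months, Arntl stood at 5.39 CPM, Npas2 at 0.638 CPM, Dusp1 at 13.9 CPM and Plin2 at 674 CPM, each the highest of the 6 mice. B6-mtAKR replicate 5 of 4 months was highest for Elovl6 (222 CPM) and Irf7 (91.7 CPM), B6-mtAKR replicate 3 of 4 months for Cd36 (147 CPM), and B6 replicate 4 of 4 months was lowest for Vdac1 (157 CPM). Among the 3-month mice, B6-mtAKR replicate 4 was highest for Igfbp1 (141 CPM), Acacb (253 CPM), Rrm2 (7.39 CPM) and Taf1d (16.7 CPM), B6-mtAKR replicate 1 for Kynu (71.6 CPM) and B6 replicate 3 for Ddx58 (19.2 CPM).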

How the results depend on the processing

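In simulated counts, 6 against 4 mice recovered 17.9% of 1.5-fold changes. The simulation used a set dispersion, not the spread of these mice, and changed far fewer genes than were called here. What the spread between these mice limits was therefore not tested. The 2597 genes called for month became 1313 (709 higher, 604 lower) with the replicate number as a block, 767 with the mtDNA share as covariate and, leaving out 1 mouse at a time, 1385 to 2637. The other settings gave 1749 (all 20 mice) to 3546 (1 surrogate variable), with 1282 higher and 1307 lower under DESeq2 size factors. In each setting every gene also called in the fit described kept its direction, 2580 of the 3482 of DESeq2 and 648 of the 767, for example. The interaction gave 2 genes under DESeq2 and 0 to 0 without a mouse. The 137 genes of B6 became 1139 under DESeq2 and 233 with no filter, and 2 to 258 without a mouse, and the 345 of B6-mtAKR became 1469 under DESeq2 and 0 to 798 without a mouse. The 4 clock genes became 7 under DESeq2, 7 with 1 surrogate variable and 3 to 7 without a mouse. Of 101 named genes called, 54 were called in every setting. With trends on length and GC content removed, mt-Nd6 turned from -0.74 to 0.0435 (not called). The causes were not tested.

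For the replicate block, mice with the same number in both strains did not deviate together (correlations of -0.464 to -0.029 over 5 pairs, mean -0.136, against 0.0398 over 20 pairs of different number), so the numbers were not taken as pairs. With the block 1226 of the 2597 genes were called. Clock genes are given above for the settings that moved them, and the block kept their count within 1.5 times. In lists, the block changed the heat shock count from 14 to 6, cytosolic ribosomal proteins from 39 to 22, mitochondrial ribosomal proteins from 22 to 14, bile acid genes from 5 to 2, interferon response from 5 to 3 and mtDNA-encoded proteins from 4 to 0. With the mtDNA share as covariate 7 heat shock, 4 fatty acid oxidation, 4 fatty acid synthesis, 5 acute phase, 6 cytosolic ribosomal, 5 mitochondrial ribosomal, 7 respiratory chain, 15 zinc finger cluster, 4 clock output, 3 glucocorticoid, 2 amino acid, 2 gluconeogenesis, 1 bile acid and 5 unfolded protein response genes were called, and 0 of cell cycle, interferon response and cholesterol synthesis.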

Other observations

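The 6 mice of 4 months differed from each other in most clock genes, and the same mice were at the extremes. B6-mtAKR replicates 2 and 3 had the highest Clock (43.2 and 31.0 CPM) and Nr1d1 (131 and 117 CPM) and the lowest Per2 (5.38 and 8.05 CPM), Per3 (4.63 and 9.53 CPM) and Ciart (1.495 and 3.80 CPM). B6-mtAKR replicate 5 had the lowest Arntl (0.391 CPM) and Clock (12.2 CPM) and the highest Dbp (221 CPM) and Ciart (14.4 CPM). The B6 mice lay between B6-mtAKR replicates 2 and 5 in Arntl, Clock, Nr1d1, Ciart and Dbp but not in Per2, where replicates 1 and 5 were the highest of the 6 mice (20.3 and 24.4 CPM). B6-mtAKR replicate 2 also had the highest Plin2 and Nfil3 (14.7 CPM) and the lowest Dbp (64.7 CPM). The order of the mice was read after their values were seen and was not tested.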
